A study of Homo sapiens with 6 samples.

Results

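The collagen and laminin chains are the genes for the polypeptides that assemble into collagens and laminins, and they were taken as every row of the count table whose symbol reads as a numbered collagen alpha chain or a numbered laminin alpha, beta or gamma chain. The rule used names only and found 56 of 28008 genes, of which 44 collagen chains and 11 laminin chains are described here. The RNA-Seq libraries came from cultures of DU-145-DR/tet-MUC1shRNA (DU145DR in the sample labels), a derivative of the human prostate cancer line DU-145 that was selected over 24 weeks in increasing docetaxel (DTX) and that carries a hairpin RNA against MUC1 under a doxycycline-inducible (DOX-inducible) promoter. The DOX_negative group was 3 cultures given 0.1% DMSO as vehicle (0 ng/ml DOX), and the DOX_positive group was 3 cultures given 500 ng/ml DOX, each for 7 days. All 6 cultures came from the same DTX-resistant line, the sample labels name the hairpin only for the DOX_positive cultures, and silencing of MUC1 cannot be told apart from exposure to DOX itself because cells with a control hairpin were not used here.

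Each collagen is made of 3 alpha chains wound into a helix, and the chains that a cell makes together decide which collagen it can build. Fibrillar collagens bear the load of connective tissue, whereas type IV collagen forms the sheet-like network of the basement membrane on which epithelial cells rest. Laminins are cross-shaped trimers of an alpha, a beta and a gamma chain that form the second basement membrane network and bind integrins on the cell surface. In the prostate, stromal cells make most of the fibrillar collagen, and basal epithelial cells rest on a laminin that contains the LAMA3 and LAMB3 chains.

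The libraries held between 15092691 and 23243713 counts, so that the floor of detection used here, 3 counts, equalled 0.129 to 0.199 CPM (counts set to a common library size). MUC1 was lower after DOX, with counts of 387, 484 and 396 against 75, 74 and 66 (log2 fold change -2.52, SE 0.146, adjusted p = 4.47e-11), and its mean CPM in DOX_positive cells was 17.6% of that in DOX_negative cells. Among 14292 genes tested with edgeR's quasi-likelihood test, 26.7% had an adjusted p under 0.05, 13.0% higher and 13.7% lower after DOX. The CPM values of the groups did not overlap for 39.8% of the genes tested, 19.5% higher and 20.2% lower. Of 8 epithelial markers, 7 were higher after DOX, and their summed CPM went from a range of 775.5 to 855.6 to a range of 1492 to 1549. KLK3 and FOLH1, which mark luminal prostate cells, had 0 counts in every library. The fibroblast markers PDGFRA, DCN, LUM, THY1 and FAP did not exceed 2 counts in any library. Of the 8 fibroblast markers 2 were tested and 1 was lower (FBLN1), with a summed CPM of 11.7 to 13.4 against 8.41 to 9.19. Of the 6 smooth muscle and pericyte markers 3 were tested and 1 was lower (CSPG4), with a summed CPM of 19.3 to 21.5 against 14.5 to 24.2. The highest counts of endothelial and leukocyte markers were 17 and 9.

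For 2 sets of genes the sequence around the start of the gene is shown, because the results below turn on these genes. The first set is LAMA3 and LAMB3, partners in the same laminin that were both higher after DOX. The second is COL4A2, which shares its start region with COL4A1. The windows run from 250 bases before to 50 bases after a RefSeq start on GRCh38.p14, and capitals in LAMA3 and LAMB3 mark TGANTCA, the AP-1 element, which reads the same on either strand. Capitals in COL4A2 mark GGGCGG, the GC box, and CCAAT, each searched on both strands.
LAMA3, chr18:23872770-23873069, plus strand: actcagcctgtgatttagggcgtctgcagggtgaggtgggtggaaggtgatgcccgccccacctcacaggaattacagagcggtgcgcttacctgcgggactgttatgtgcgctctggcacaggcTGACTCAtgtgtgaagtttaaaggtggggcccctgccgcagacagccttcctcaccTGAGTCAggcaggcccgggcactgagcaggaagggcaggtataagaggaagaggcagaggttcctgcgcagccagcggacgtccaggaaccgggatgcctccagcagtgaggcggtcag
LAMB3, chr1:209651325-209651624, minus strand: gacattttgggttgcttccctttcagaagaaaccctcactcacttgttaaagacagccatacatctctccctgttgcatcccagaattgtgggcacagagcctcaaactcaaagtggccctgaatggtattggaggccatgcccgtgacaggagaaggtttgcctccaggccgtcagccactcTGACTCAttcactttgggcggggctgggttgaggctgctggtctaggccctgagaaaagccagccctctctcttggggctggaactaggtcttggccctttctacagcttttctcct
COL4A2, chr13:110307034-110307333, plus strand: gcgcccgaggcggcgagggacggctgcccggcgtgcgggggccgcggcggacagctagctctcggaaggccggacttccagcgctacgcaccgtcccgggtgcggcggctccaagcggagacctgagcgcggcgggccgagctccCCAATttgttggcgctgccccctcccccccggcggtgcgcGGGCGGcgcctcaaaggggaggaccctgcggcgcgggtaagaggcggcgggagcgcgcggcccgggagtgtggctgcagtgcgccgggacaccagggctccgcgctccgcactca
The LAMA3 window holds TGACTCA and TGAGTCA, starting 125 and 69 bases before the start, and it lies inside the body of LAMA3 (chr18:23689443-23956222), where a shorter transcript begins. The LAMB3 window, the one of 3 listed for this gene that holds the element, has TGACTCA 67 bases before the start. The element was in 7.71% of 35116 windows of the table and in 5.45% of the 55 windows of the 41 chains that the table lists, the remaining chain with a match being COL10A1, which had 0 counts in every library. The COL4A2 window overlaps that of COL4A1, read on the opposite strand, over 226 bases, and the RefSeq starts of these genes lie 127 bases apart. GGGCGG was in 45.0% and CCAAT in 34.6% of all windows.

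DU-145-DR cells carried transcripts for most basement membrane chains and little of the fibrillar ones. Of these 55 chains, 30 had enough counts to be tested, and 22 had a mean of at least 1 TPM over the 6 libraries. TPM, a unit of transcript abundance that corrects for transcript length, was rescaled here without 5 short noncoding RNAs that held between 34.4% and 64.4% of the deposited TPM of a library. The most abundant chain was LAMB3, with a mean of 174 TPM, followed by LAMC1 with 105 and COL6A1 with 79.8. This order held in each of the 6 libraries.

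Below them lay LAMA3, LAMA5 and LAMB2, with means between 43.8 and 38.4 TPM, and neighbours in this order changed places in at least 1 library. COL6A2, with 30.0 TPM, was below LAMB2 in all 6 libraries. COL12A1, a fibril-associated collagen, had 20.5 TPM and was below COL6A2 and above COL4A2 in all 6 libraries. COL4A2, LAMA1, LAMB1, COL18A1, COL13A1 and COL4A1 lay between 15.7 and 10.9 TPM, and their order was not the same in every library. The most abundant fibrillar chain, COL1A1, had a mean of 1.93 TPM. Shares were taken within the summed TPM of the fibrillar, type IV and laminin chains described here. The fibrillar chains made up 1.17% ± 0.0704 (SD, n = 3) in DOX_negative and 0.981% ± 0.0928 in DOX_positive cells. The type IV chains made up 7.5% ± 0.222 and 6.98% ± 0.184, and the laminins 91.3% ± 0.174 and 92.0% ± 0.258. These shares did not overlap between the groups, but shares of one sum are tied, so a higher laminin share lowers the others. The summed rescaled TPM of the type IV chains overlapped, at 31.78 to 37.01 in DOX_negative and 33.94 to 35.18 in DOX_positive libraries. That of the fibrillar chains overlapped too, at 4.82 to 5.577 and 4.346 to 5.164.

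**Figure D1:**
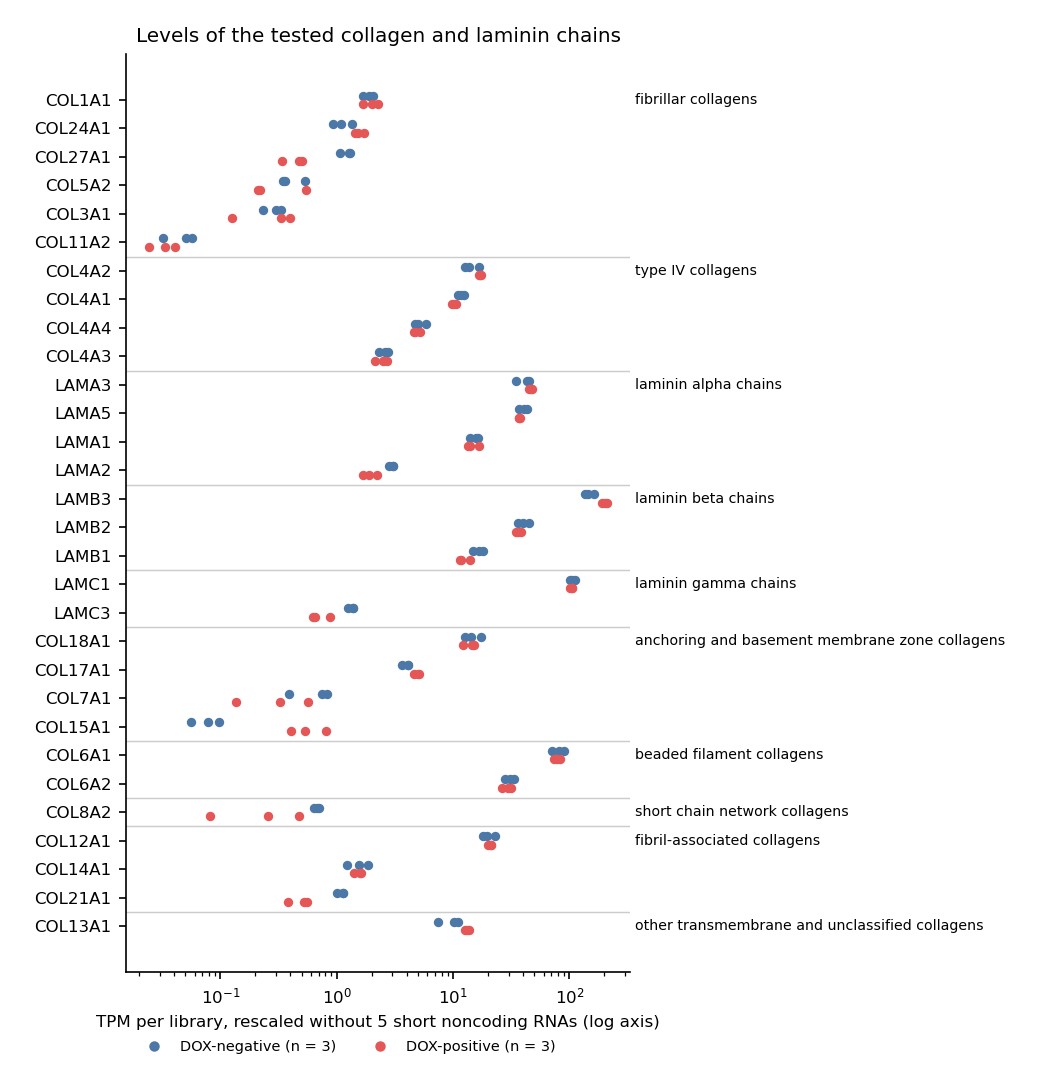
Rescaled TPM (log axis) of the 30 tested chains, 1 point for each library, DOX_negative in blue and DOX_positive in red, grouped by class and ordered by mean level. Laminin chains reach a mean of 174 TPM (LAMB3), whereas the fibrillar chains at the top of the plot stay at or below a mean of 1.93 TPM (COL1A1).

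The chains that were not tested are part of the repertoire too, since a collagen trimer needs particular partners. Of these 25 chains, 2 (COL10A1 and COL4A6) were at 0 in all 6 libraries, so that up to 0.199 CPM could have been missed in the smallest one, and 19, with these included, had at most 5 counts in any library. The other 6 reached at most 16 counts (COL5A1 in a DOX_negative library). COL6A1 and COL6A2 were among the most abundant chains, but COL6A3, the chain that completes the usual type VI trimer, had at most 2 counts in a library, and COL6A5 and COL6A6, which can take its place, at most 2 and 4. COL1A1 had between 66 and 96 counts in each library, whereas COL1A2, its partner in type I collagen, had between 0 and 9. LAMA4, an alpha chain of vascular basement membranes, had at most 2 counts, and LAMB4 at most 1.

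The type IV collagen genes lie in 3 pairs that face away from each other, and in each pair either both genes or neither had enough counts to be tested. COL4A1 and COL4A2 on chromosome 13 had means of 10.9 and 15.7 TPM, and COL4A3 and COL4A4 on chromosome 2, whose starts lie 419 bases apart, at 2.51 and 5.02 TPM. COL4A5 and COL4A6 on chromosome X, with starts 380 bases apart, had at most 1 and 0 counts. COL4A5 is the chain that joins COL4A3 and COL4A4 in the trimer of the kidney glomerulus. COL4A4 was above COL4A3 in every library, with a TPM ratio of 2.03 ± 0.0856 in DOX_negative and 1.99 ± 0.153 in DOX_positive cells (SD, n = 3). The deposited TPM of COL4A2 implies a transcript about 0.531 times as long as all its annotated exons, so its level relative to the other chains depends on the annotation used.

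After DOX, 10 of the 30 tested chains passed the threshold, 33.3% against 26.7% of all genes tested, and they were split between higher (5) and lower (5). COL15A1, among the higher ones, passed the filter on low counts only through the DOX_positive group, and with at least 10 counts required in every library it was not tested and 9 chains passed, 4 higher and 5 lower. In such bulk libraries fewer cells that make a chain and less of its RNA per cell cannot be told apart. The median log2 fold change of the 30 chains was -0.0499, close to the -0.00336 of all genes tested. The groups did not overlap for 7 chains that were higher and 7 that were lower, to be read against 19.5% and 20.2% of all genes. On the deposited TPM without rescaling, tested with limma on log2(TPM + 1), 1 chain passed (COL27A1), as did 30 genes higher and 413 lower of all genes, whose median log2 fold change was -0.321 on that scale. In the count fit LAMB3, LAMA3, COL4A2, COL13A1 and COL15A1 were higher, of which LAMA3 (-0.17) and COL4A2 (-0.10) were below 0, though above that median, on the deposited TPM. LAMB1, LAMA2, LAMC3, COL21A1 and COL27A1 were lower on either scale. On the deposited TPM, LAMC3 (-0.39) and COL21A1 (-0.38) were near the median of all genes (-0.321). Among the fibrillar chains 1 of 6 tested (COL27A1) passed, and among the basement membrane chains (type IV collagens and laminins) 6 of 13 tested, 3 higher and 3 lower; the median log2 fold changes were -0.229 and -0.0744, and the difference between these classes was not tested.

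**Figure D2:**
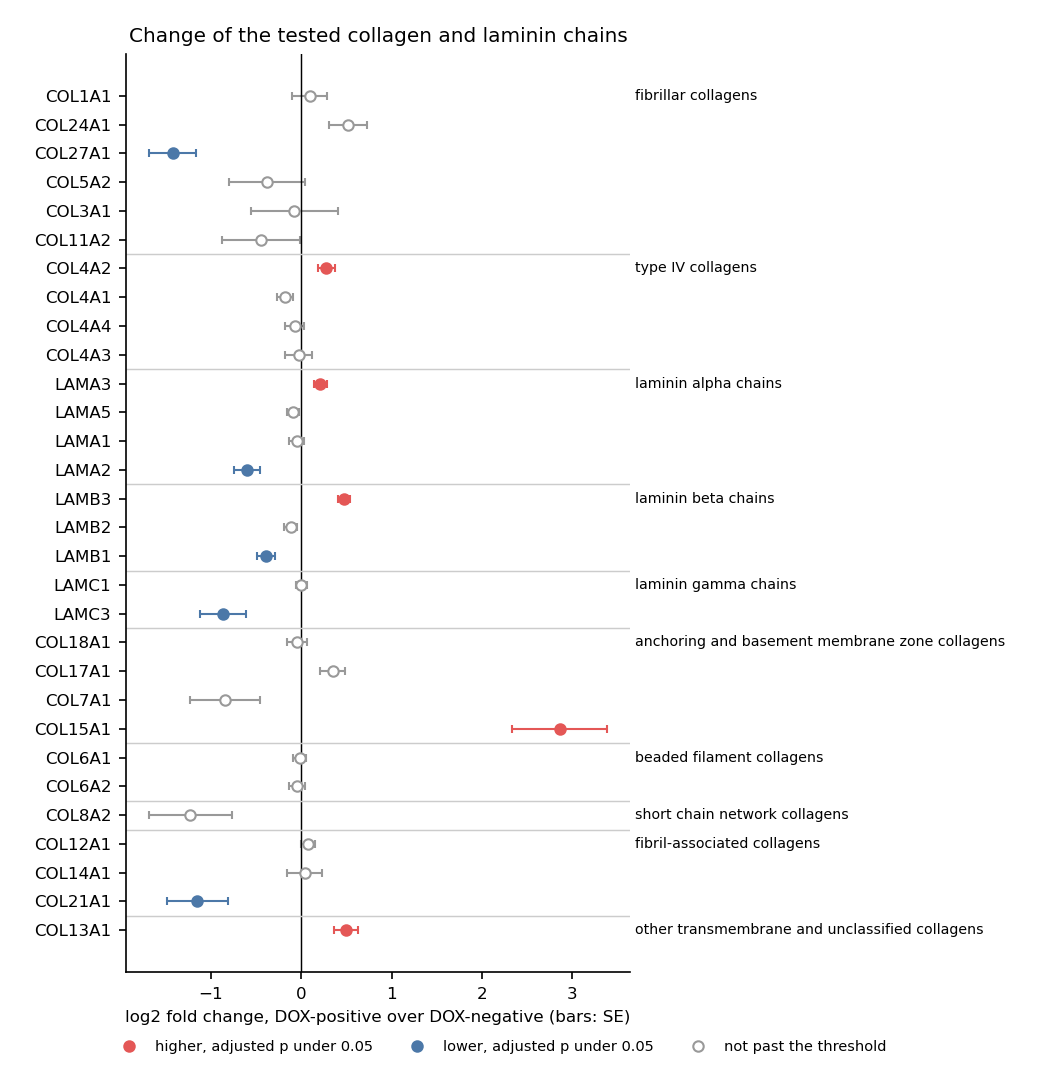
Log2 fold change of DOX_positive over DOX_negative cells for the 30 tested chains by class, with bars for the SE of the edgeR fit, filled where the adjusted p is under 0.05. The 5 chains that were higher (red) and the 5 that were lower (blue) occur in different classes, from 2.86 for COL15A1, fitted against counts at the floor, to -1.42 for COL27A1.

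Of the 9 laminin chains tested, 2 were higher and 3 lower, 55.6% beside the 26.7% of all genes tested. LAMB3, the beta chain found in the epithelial laminin of hemidesmosomes, had 237, 259 and 228 CPM in DOX_negative and 357, 312 and 334 CPM in DOX_positive cells. Every DOX_positive library was above every DOX_negative one, with a log2 fold change of 0.47 (SE 0.0672, adjusted p = 1.77e-05).

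LAMA3, the alpha chain of this laminin, had 184, 187 and 152 CPM in DOX_negative and 198, 204 and 203 CPM in DOX_positive cells. The groups did not overlap, but DOX_negative replicate 3 lay apart from the other libraries of its group, and the log2 fold change of 0.21 (SE 0.0721, adjusted p = 0.0343) was small. This call was lost without DOX_negative replicate 3 (0.12, adjusted p = 0.207) and without any of the DOX_positive libraries (adjusted p between 0.0580 and 0.0864). The TPM ratio of LAMB3 to LAMA3 was 3.62 ± 0.27 in DOX_negative and 4.32 ± 0.353 in DOX_positive cells (SD, n = 3).

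LAMC1, the gamma chain of most laminins and the second most abundant chain, had 308, 323 and 308 CPM against 312, 315 and 313 CPM. Its groups overlapped and its log2 fold change was 0.0016 (SE 0.0587, adjusted p = 0.988), with a sign that differed between processing settings. LAMC3, another gamma chain, was low and fell, from 3.08, 3.07 and 2.88 CPM to 1.52, 1.98 and 1.41 CPM (log2 fold change -0.87, SE 0.256, adjusted p = 0.0148). Its groups did not overlap, although the adjusted p rose to between 0.0502 and 0.0610 without DOX_negative replicate 1, DOX_positive replicate 1 or DOX_positive replicate 3.

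Among the beta chains LAMB1, the beta chain of many embryonic and widely expressed laminins, fell from 35.8, 38.0 and 33.2 CPM to 25.5, 30.8 and 25.3 CPM. All DOX_positive libraries were below all DOX_negative ones (log2 fold change -0.39, SE 0.0970, adjusted p = 0.00452). LAMB2, the beta chain of muscle and kidney laminins, had a log2 fold change of -0.12 (SE 0.0759, adjusted p = 0.262). Within the beta chain TPM, LAMB3 went from 72.2% ± 0.36 to 80.4% ± 1.78, LAMB1 from 8.08% ± 0.131 to 4.98% ± 0.768 and LAMB2 from 19.7% ± 0.306 to 14.6% ± 1.03 (SD, n = 3). The groups did not overlap for any of these shares. The shares come from values within a library, so they do not depend on how libraries were scaled to each other. They are parts of one sum, however, so a higher LAMB3 share lowers the others. The CPM of LAMB2 itself overlapped between the groups.

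Of the alpha chains, LAMA2, the chain of muscle basement membranes, fell from 10.2, 11.0 and 11.4 CPM to 6.40, 7.05 and 8.26 CPM (log2 fold change -0.60, SE 0.143, adjusted p = 0.00329). The groups were separate. LAMA5, the most widespread alpha chain of adult epithelia, and LAMA1 did not pass the threshold, with log2 fold changes of -0.09 (SE 0.0644, adjusted p = 0.324) and -0.05 (SE 0.0858, adjusted p = 0.702). LAMA3 made up 41.1% ± 1.54 of alpha chain TPM in DOX_negative and 46.4% ± 0.46 in DOX_positive cells, and LAMA5 40.5% ± 0.838 and 37.1% ± 1.31 (SD, n = 3).

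**Figure D3:**
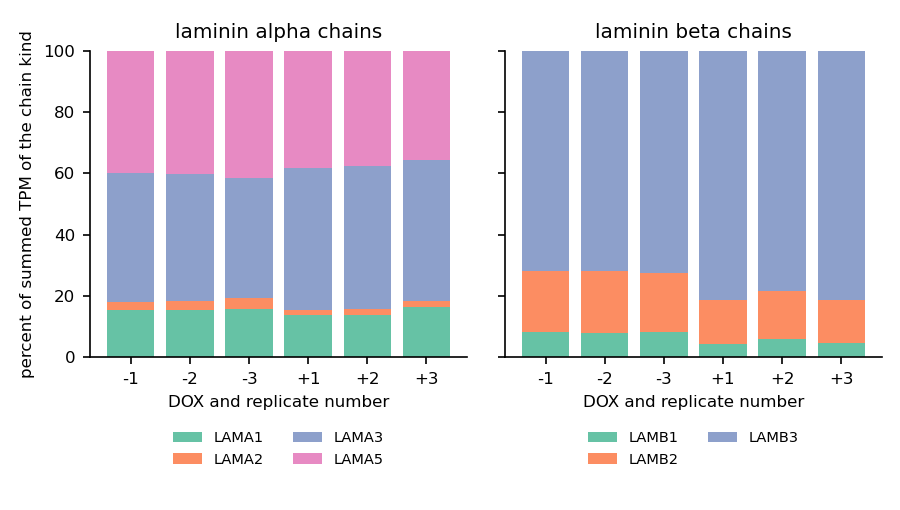
Percent of the summed TPM of laminin alpha chains and of laminin beta chains held by each chain, 1 bar for each library, DOX_negative (-1 to -3) and DOX_positive (+1 to +3). The LAMB3 segment is between 72.0% and 72.6% in DOX_negative and between 78.4% and 81.5% in DOX_positive libraries, and chains under 0.1% are not drawn.

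In type IV collagen COL4A2 was higher after DOX, whereas its partner COL4A1 did not pass the threshold. COL4A2 had 30.0, 39.2 and 34.1 CPM in DOX_negative and 42.0, 40.6 and 42.5 CPM in DOX_positive cells (log2 fold change 0.28, SE 0.0936, adjusted p = 0.0324). COL4A1 had 34.4, 31.9 and 31.4 CPM against 28.3, 29.6 and 28.4 CPM. Its DOX_positive libraries all lay below its DOX_negative ones (log2 fold change -0.18, SE 0.0878, adjusted p = 0.140).

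The count ratio of COL4A2 to COL4A1 was 0.871, 1.23 and 1.09 in DOX_negative and 1.48, 1.37 and 1.50 in DOX_positive libraries, so all DOX_positive ratios were higher. As these genes were picked for this ratio after their values were seen, it is given with no test. The COL4A2 call was lost in 4 of the 6 sets that left out a library, with adjusted p of 0.209 without DOX_negative replicate 1, 0.0803 without DOX_negative replicate 3, 0.0771 without DOX_positive replicate 1 and 0.0894 without DOX_positive replicate 3. COL4A3 and COL4A4 had log2 fold changes of -0.03 and -0.07, with adjusted p of 0.913 and 0.653.

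Among the collagens of the basement membrane zone, COL15A1 was at the floor in DOX_negative cells, with counts of 2, 3 and 4 against 19, 31 and 16 in DOX_positive cells. The ratio of its counts, summed over the libraries of each group and corrected for library totals, was 7.27. Its 95% exact interval, from 3.61 to 16.6, covers counting error only and not the spread between cultures. COL15A1 passed the filter on low counts only through the DOX_positive group, where it was high. Its adjusted p in the edgeR fit (0.000319) is therefore no independent support for the rise. Type XV collagen is carried by many basement membranes. With a mean of 0.328 TPM over all libraries it remained a minor chain. An antisense gene overlaps 2.49% of its exon bases, and whether counting used strand is not given in the sources used here. COL17A1, a transmembrane collagen of hemidesmosomes, had 7.43, 8.23 and 8.75 CPM against 11.0, 9.66 and 10.4 CPM. Its groups did not overlap and its log2 fold change of 0.35 (SE 0.137, adjusted p = 0.0648) did not pass the threshold, except without DOX_positive replicate 2 (adjusted p = 0.0489).

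COL18A1, whose end fragment is endostatin, had a log2 fold change of -0.05 (SE 0.106, adjusted p = 0.790). COL7A1, the anchoring fibril collagen, had counts of 51, 49 and 28 against 46, 9 and 17. Its groups overlapped (log2 fold change -0.85, SE 0.387, adjusted p = 0.112), and the value was -1.51 (adjusted p = 0.0153) without DOX_positive replicate 1 and -0.45 (adjusted p = 0.374) without DOX_positive replicate 2.

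The fibrillar chains were low throughout. COL27A1, a fibrillar collagen of cartilage, fell from 67, 73 and 64 counts to 35, 19 and 21 counts, or from 3.69, 3.73 and 3.18 CPM to 1.52, 0.992 and 1.41 CPM. Every DOX_positive library was below every DOX_negative one, and the log2 fold change was -1.42 (SE 0.263, adjusted p = 0.000334). This call was kept in all 16 alternative settings, the only chain past the threshold of which this was true. COL24A1, its relative among the minor fibrillar collagens, had 2.92, 3.58 and 2.59 CPM against 4.79, 3.97 and 4.17 CPM (log2 fold change 0.51, SE 0.210, adjusted p = 0.0748). Its groups did not overlap, in the direction opposite to that of COL27A1.

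COL1A1, the main chain of type I collagen, had 4.46, 4.09 and 3.83 CPM against 3.79, 5.01 and 4.43 CPM, and its groups overlapped (log2 fold change 0.09, SE 0.193, adjusted p = 0.771). Within fibrillar TPM, COL27A1 went from 23.0% ± 1.21 to 9.18% ± 2.47 and COL24A1 from 21.2% ± 3.36 to 32.4% ± 5.87 (SD, n = 3). COL3A1, COL5A2 and COL11A2 had between 6 and 25 counts in each library, and their adjusted p lay between 0.493 and 0.927. With so few counts, the SE of their log2 fold changes was between 0.419 and 0.484. The TPM of COL11A2 implies a transcript 7.10 times as long as its annotated exons, so its level per length depends on the annotation used. It held 0.88% of fibrillar TPM in DOX_negative and 0.682% in DOX_positive cells, and 5.74% and 4.49% with counts per exon base, where COL27A1 went from 22.8% to 9.16% and COL24A1 from 22.3% to 34.4%.

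**Figure D4:**
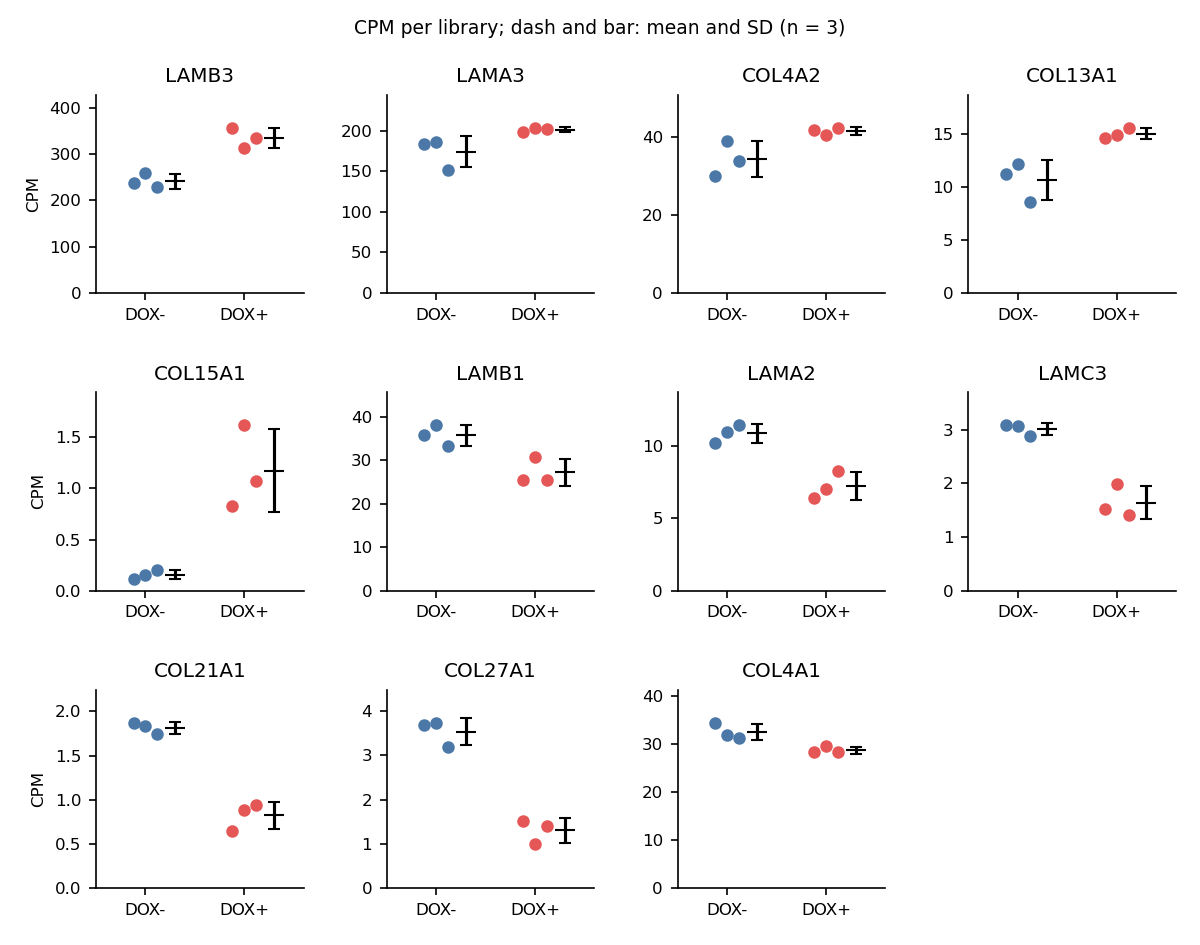
CPM in each library of the 10 chains that passed the threshold and of COL4A1, with a dash and bar for the mean and SD of each group (n = 3) and each axis starting at 0. DOX_positive libraries lie above DOX_negative ones for the first 5 chains and below them for the last 6.

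Of the remaining collagens, COL13A1, a transmembrane collagen known from the neuromuscular junction, was higher after DOX, with 11.2, 12.2 and 8.55 CPM against 14.6, 14.9 and 15.6 CPM (log2 fold change 0.50, SE 0.133, adjusted p = 0.00798). Its groups did not overlap, and the adjusted p was 0.0584 without DOX_negative replicate 3. COL21A1, a fibril-associated collagen, fell from 34, 36 and 35 counts to 15, 17 and 14 counts (log2 fold change -1.15, SE 0.334, adjusted p = 0.0135). Its groups were separate, and the adjusted p was 0.0686 without DOX_positive replicate 1. COL8A2, a short chain network collagen, had 20, 20 and 24 counts against 10, 15 and 2 (log2 fold change -1.23, SE 0.456, adjusted p = 0.0501). It passed the filter in 1 of 3 DOX_positive libraries and in all 3 DOX_negative ones, where it was high. Its adjusted p is therefore no independent support for a fall. The adjusted p was 0.0140 without DOX_positive replicate 2 and between 0.0880 and 0.201 without any other library.

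The type VI chains and 2 fibril-associated collagens did not pass the threshold. COL6A1 had between 113 and 135 CPM in all 6 libraries (log2 fold change -0.02, SE 0.0739, adjusted p = 0.890), and COL6A2 had a log2 fold change of -0.05 (SE 0.0888, adjusted p = 0.745). The count ratio of COL6A2 to COL6A1 was 0.393 ± 0.0336 and 0.382 ± 0.0172 (SD, n = 3), so these neighbours on chromosome 21 differed in proportion by less than the spread. COL12A1 and COL14A1, both fibril-associated, had log2 fold changes of 0.07 (SE 0.0749, adjusted p = 0.521) and 0.04 (SE 0.191, adjusted p = 0.917).

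The genes that fold and modify collagen were next in the path from chain to matrix. Of 18 tested, 1 was higher (P3H2, log2 fold change 0.30, SE 0.0908, adjusted p = 0.0185) and 5 were lower, 33.3% in all beside the 26.7% of all genes tested. The 5 were P3H3, CRTAP, P3H1, P3H4 and SERPINH1. CRTAP, the scaffold of the prolyl 3-hydroxylase complex, went from 234 ± 2.17 CPM to 121 ± 1.98 CPM (SD, n = 3; log2 fold change -0.95, adjusted p = 1.82e-10). P3H1, the enzyme of this complex, had a log2 fold change of -0.91 (SE 0.0943, adjusted p = 2.45e-07), whereas PPIB, the remaining subunit, had 0.0070 (SE 0.0718, adjusted p = 0.956).

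P3H3 and P3H4, relatives that act with lysyl hydroxylase, had log2 fold changes of -1.56 (adjusted p = 0.00113) and -0.72 (adjusted p = 0.000105). SERPINH1, the collagen chaperone HSP47, had -0.47 (adjusted p = 0.00151). The prolyl 4-hydroxylase subunits P4HA1, P4HA2, P4HA3 and P4HB and the lysyl hydroxylases PLOD1, PLOD2 and PLOD3 did not pass the threshold. P3H2, which modifies type IV collagen, lost its call without any of 4 libraries (adjusted p between 0.0516 and 0.111: DOX_negative replicates 1 and 2 and DOX_positive replicates 2 and 3) and was at -0.09 on the deposited TPM.

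In export, cleavage and crosslinking, 3 of 14 tested genes passed, 21.4% beside the 26.7% of all genes tested. LOX, which crosslinks collagen and elastin, rose from 223, 215 and 269 counts to 1138, 1041 and 910 counts (log2 fold change 2.17, SE 0.104, adjusted p = 3.78e-12). Every DOX_positive library was far above every DOX_negative one. LOXL1, LOXL2, LOXL3 and LOXL4, relatives of LOX, did not pass the threshold, with log2 fold changes between -0.08 and 0.33. MIA2, which helps load procollagen into carriers, had 0.53 (adjusted p = 6.64e-05), and SEC23A, of the vesicle coat, had -0.18 (adjusted p = 0.0287), a call that was lost in 4 of the 6 sets that left out a library (replicates 1 and 3 of either group, adjusted p between 0.0751 and 0.0910).

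Among the other basement membrane components, 1 of 11 tested was higher and 3 were lower, 36.4% beside the 26.7% of all genes tested. NID1, which links laminin to type IV collagen, had 26.4 ± 1.07 CPM against 17.7 ± 3.01 CPM (SD, n = 3; log2 fold change -0.57, adjusted p = 0.000602). FBLN1 had -0.74 (adjusted p = 0.000663) and FREM2 had -0.42 (adjusted p = 0.0223). NTN4, a short laminin relative that binds gamma chains, had 0.20 (adjusted p = 0.0188), and -0.19 on the deposited TPM. FREM2 lost its call without DOX_negative replicate 1 or DOX_positive replicate 1 (adjusted p 0.0959 and 0.100), and NTN4 without DOX_negative replicate 1, DOX_positive replicate 1 or DOX_positive replicate 3 (0.0804, 0.0624 and 0.0936). The large proteoglycans HSPG2 and AGRN did not pass the threshold.

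Of 15 receptors for these chains, all tested, 7 were higher and 1 was lower, 53.3% beside the 26.7% of all genes tested. ITGA2, the alpha subunit of a collagen and laminin receptor, had 160 ± 7.58 CPM against 796 ± 22.1 CPM (SD, n = 3; log2 fold change 2.31, adjusted p = 1.13e-16). DDR2, a receptor kinase for fibrillar collagen, had 1.24 (adjusted p = 6.43e-05), ITGA1 0.77 (adjusted p = 3.33e-05) and ITGA6 0.60 (adjusted p = 3.97e-07). ITGB4, named here after its values were seen because it pairs with ITGA6 as the receptor for the laminin that holds LAMA3 and LAMB3, had 0.58 (adjusted p = 3.04e-06). The others called higher were ITGB1 and ITGA3, which were at -0.0012 and -0.14 on the deposited TPM, and the gene called lower was ITGA7, a muscle laminin receptor (log2 fold change -1.06, adjusted p = 0.0111), whose adjusted p was 0.130 without DOX_negative replicate 2.

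**Figure D5:**
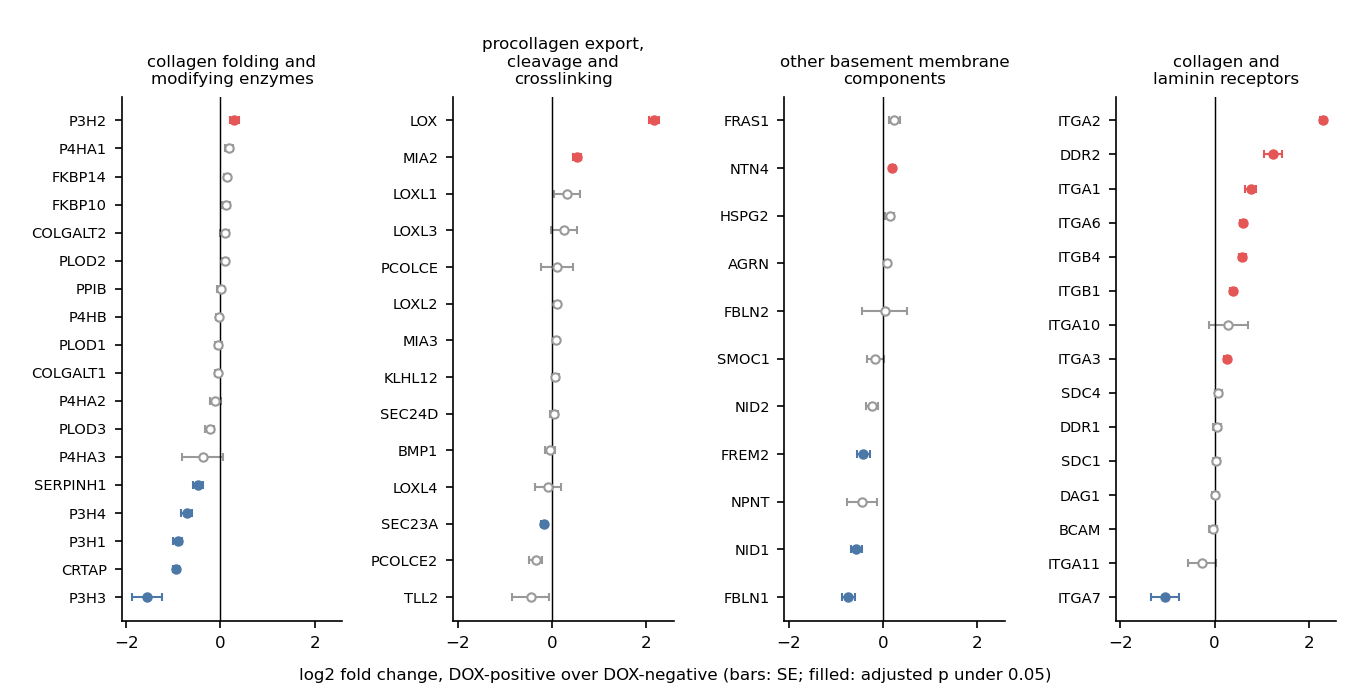
Log2 fold change of DOX_positive over DOX_negative cells, with SE bars, for the tested genes of 4 lists of partners of the chains, filled where the adjusted p is under 0.05. Those called higher are red and those called lower blue: 6 of 18 folding and modifying enzymes, 3 of 14 genes of export, cleavage and crosslinking, 4 of 11 basement membrane components and 8 of 15 receptors are filled, beside 26.7% of all genes tested (13.0% higher and 13.7% lower).

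The change in laminin chains was accompanied by the rise in epithelial markers given above, among them EPCAM (log2 fold change 1.43) and CDH1 (0.92), and its part in the chain changes was not tested. The heptamer ATCAGTA in 3′UTRs was picked in an earlier scan of these data, so its shares here are no independent test. It was held by 21.5% of 1829 genes that were lower, 7.42% of 1697 that were higher and 10.0% of 12099 genes tested. Only genes with an annotated 3′UTR of at least 50 bases were counted. Of the 30 tested chains, 2 held the heptamer (COL4A1 and COL4A4), and none of the 10 that passed the threshold did. Among the partner genes it was held by CRTAP, SERPINH1 and NID1, which were lower, and by DDR2 and ITGA1, which were higher.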

How the data were processed

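The authors deposited whole-number read counts of 28008 genes and TPM values of 25546 genes, made from stranded poly(A) RNA libraries. The submitters' processing notes name GRCh38, STAR and DESeq2; their settings and the counting step are not given in the sources used here. From the counts, genes passing filterByExpr were scaled with TMM factors (0.986 to 1.03) and tested with edgeR 4.0.16 in R 4.3.3 (glmQLFit and glmQLFTest, two-sided, group as the only term), with Benjamini-Hochberg adjustment over all genes. CPM refers to library sizes after TMM scaling. Each SE was derived from the fold change and the F statistic of its gene. Levels and shares between chains use the TPM the authors deposited; shares use it unchanged. Locations and exon lengths are from GENCODE 29 (GRCh38), start regions from RefSeq. Cultures were triplicates, so p-values measure the spread between cultures of 1 line. Within groups, libraries differed beyond sampling noise (chi-square per degree of freedom from 3.65 to 19.0). Reads carried no stated molecular identifiers. The fits were tested on simulated data. Some genes of the lists are not reported here, and counts over the chains leave them out.

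Tested chains were named if called or among the 3 most abundant of their class. Partner genes were named if called, at most 4 per list and direction. SERPINH1, ITGB4, ITGB1, ITGA3, PPIB and other partners that did not pass were named after their values were seen, as were COL3A1, COL4A3, COL5A2 and COL11A2. Of the chains that were not tested, only some were named, outside this rule. The members and gene lists were chosen with earlier results of these data known, and the heptamer came from an earlier scan of these data. Alternatives were DESeq2 1.42.0, RLE factors, library totals, no filter, a replicate block, a minimum of 10 counts per library, thinning, limma 3.58.1 on log2(TPM + 1), log2(TPM + 0.1) and log2(rescaled TPM + 1), and each library left out. Shares from counts per exon base, and without each library, were added after seeing the data.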

Additional observations from a re-analysis of the deposited data

How the results depend on the processing

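Shares, each given within a library, moved by less than the spread between replicates with counts per exon base or without any library, settings chosen after seeing the data, for LAMA3 (between 4.51 and 5.98 percentage points) and LAMB3 (7.67 to 9.24). DESeq2 and RLE factors changed no call among the chains. The number of chains past the threshold was 10, between 8 and 12 with the other count settings and with rescaled TPM. With library totals only, the median of all genes was -0.038, COL4A2 and LAMA3 lost their calls (adjusted p 0.0679 and 0.0896) and COL8A2 gained one (0.0449). COL8A2 also passed with thinned counts and with no filter, as did COL7A1 with no filter. With rescaled TPM, COL4A2, LAMA3, P3H2 and FREM2 were lost (0.142, 0.184, 0.0642 and 0.148).

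The deposited TPM changed most: with limma on log2(TPM + 1) 443 genes, 1 chain (COL27A1) and 7 partner genes passed, and on log2(TPM + 0.1) 408, 1 and 6, against 3816, 10 and 21. The median of all genes was then -0.321 and -0.386, and -0.025 on the TPM rescaled without the 5 short noncoding RNAs. On log2(TPM + 1) and log2(TPM + 0.1), in this order, COL12A1 was -0.29 and -0.31, COL14A1 -0.16 and -0.32, COL17A1 -0.038 and -0.045, COL1A1 -0.15 and -0.27, COL4A2 -0.10 and -0.11, LAMA3 -0.17 and -0.18, LAMC1 -0.38 and -0.39, ITGA3 -0.14 and -0.14, ITGB1 -0.0012 and -0.0011, NTN4 -0.19 and -0.20, and P3H2 -0.088 and -0.093, opposite in sign to the edgeR fit. Other reversals were of chains near 0 or with few counts. LAMC1 was -0.034 with library totals, -0.0023 with at least 10 counts in every library, -0.0045 thinned and -0.023 with rescaled TPM, COL14A1 was -0.00070 with library totals, and COL3A1 was 0.13 thinned.

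Without each library in turn, 7 to 11 chains and 2784 to 3645 genes passed. The ranges that crossed 0 were -0.092 to 0.18 for COL14A1, -0.13 to 0.075 for COL18A1, -0.015 to 0.20 for COL1A1, -0.36 to 0.33 for COL3A1, -0.091 to 0.054 for COL4A3, -0.13 to 0.0038 for COL4A4, -0.081 to 0.048 for COL6A1, -0.12 to 0.029 for COL6A2, -0.14 to 0.00080 for LAMA1 and -0.011 to 0.027 for LAMC1.

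Same-numbered libraries of the 2 groups did not deviate together (r of -0.019, -0.095 and -0.027 across genes). Values over all genes cannot exclude a pairing that affects few of them. With a replicate block 3158 genes, 8 chains and 19 partner genes passed, and COL4A2, LAMA3, NTN4 and SEC23A were lost (adjusted p 0.0503, 0.0588, 0.0534 and 0.0830). No same-numbered pair had the highest correlation of either of its libraries. At between 15092691 and 23243713 counts a library, 25 chains had too few to be tested.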
